A study of Mus musculus with 6 samples.

Results

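The miRNAs described here are 7 hairpins known from microglia, blood leukocytes and inflammation: miR-142, miR-146a, miR-146b, miR-150, miR-155, miR-223 and miR-21a. They were taken by name, with both arms, and make 14 of the 2035 mature miRNA rows in the deposited count files. Small RNA was sequenced from the hippocampus of male C57BL/6 mice at an age of 3 months. All mice were Dicer1 flox/flox and had received tamoxifen 3 weeks before tissue collection. In the 3 Dicer1-ifKO libraries the mice also carried CaMKIIa-creERT2, a tamoxifen-inducible Cre under a promoter active in excitatory forebrain neurons. The 3 WT libraries came from mice without this transgene. Each library pooled RNA of 3 mice, so the spread between libraries is one between pools. The study's text gives more mice per genotype than 3 pools of 3 hold, and which mice entered which pool was not stated. The miRNA rows held 2318205 to 3179363 counts per library and all features together 55101387 to 77428956, with overlapping features counting a read more than once.

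Dicer1 encodes the ribonuclease that cuts the loop from a precursor hairpin and leaves a duplex of a 5p and a 3p strand, of which 1 is usually kept. Microglia, the resident macrophages of the brain, and leukocytes in vessels and meninges lie outside the CaMKIIa lineage and are not the cells in which this Cre is expressed. miR-142 is transcribed in blood-derived cells and microglia, miR-223 in myeloid cells and miR-150 in mature lymphocytes. miR-155 and miR-146a are induced through NF-kB, and miR-146 represses the adaptor Traf6 and the kinase Irak1. miR-21a lies at the end of the Vmp1 gene and is made in many cell types, with higher levels in reactive astrocytes and inflamed tissue. The comparison asks how the levels of these miRNAs stood when Dicer1 was deleted in excitatory neurons of the same tissue.

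Mature sequences were found for 13 of the 14 rows, all but miR-150-5p, in the RefSeq table for GRCm38.p6, by identical coordinates. Of these, the sequences that carry most counts or bear on how reads were assigned are printed 5′ to 3′, with the seed (bases 2 to 8, the main target-pairing part) in capitals.
miR-21a-5p: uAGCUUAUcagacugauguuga
miR-142-5p: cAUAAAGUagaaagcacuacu
miR-142-3p: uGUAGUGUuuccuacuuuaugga
miR-142b: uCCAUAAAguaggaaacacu
miR-146a-5p: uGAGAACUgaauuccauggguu
miR-146b-5p: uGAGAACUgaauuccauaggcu
miR-155-5p: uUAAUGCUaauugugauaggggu
miR-223-3p: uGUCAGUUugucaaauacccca
miR-146a-5p and miR-146b-5p share the seed GAGAACU and 20 of 22 bases. Counted from the 5′ end, they differ by G18A and U21C, with the miR-146a base first. The miR-21a-5p seed recurs only in miR-21c among the mature miRNAs of the RefSeq table, and the miR-21c row held 0 counts in all libraries. No other mature miRNA of that table shares a seed with miR-142-5p, miR-142-3p, miR-155-5p or miR-223-3p.

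The miR-142 locus makes miRNA rows on both strands. In its 64-base hairpin (chromosome 11, 87756864 to 87756927, plus strand, GRCm38) the capitals mark the 5p arm and then the 3p arm.
Mir142: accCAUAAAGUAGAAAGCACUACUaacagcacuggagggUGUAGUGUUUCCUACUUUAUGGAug
The 20 bases of miR-142b, annotated on the opposite strand, are the reverse complement of part of the 3p arm. The miR-142b row held 98 counts and the miR-142-3p row 103 over the 6 libraries, so the same reads may be counted in both rows.

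In Dicer1-ifKO hippocampus 0 of the 7 testable member rows passed the test in either direction (edgeR quasi-likelihood test over 6539 features, Benjamini-Hochberg adjusted p under 0.05). In the same fit 6.59% of 546 tested miRNA rows were called lower and 0% higher, and over all features 0.795% and 0.0153%. At an unadjusted p under 0.05, miR-146b-5p was lower and miR-142-3p was higher, where 31.1% of all tested miRNA rows were lower and 2.01% higher. DESeq2 also called 0 member rows. Of the other 7 rows, 2 held no count and 5 held 3 to 51 counts over all libraries, too few for the filter on low counts. Levels are given as CPM, counts per 1000000 counts of all tested features after TMM scaling, or as miRNA CPM, counts per 1000000 counts of the miRNA rows. The mature miRNAs are 21 to 23 bases long, so levels were compared between rows without a length correction. In bulk tissue, fewer cells of a type and less RNA per cell cannot be told apart.

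**Figure D1:**
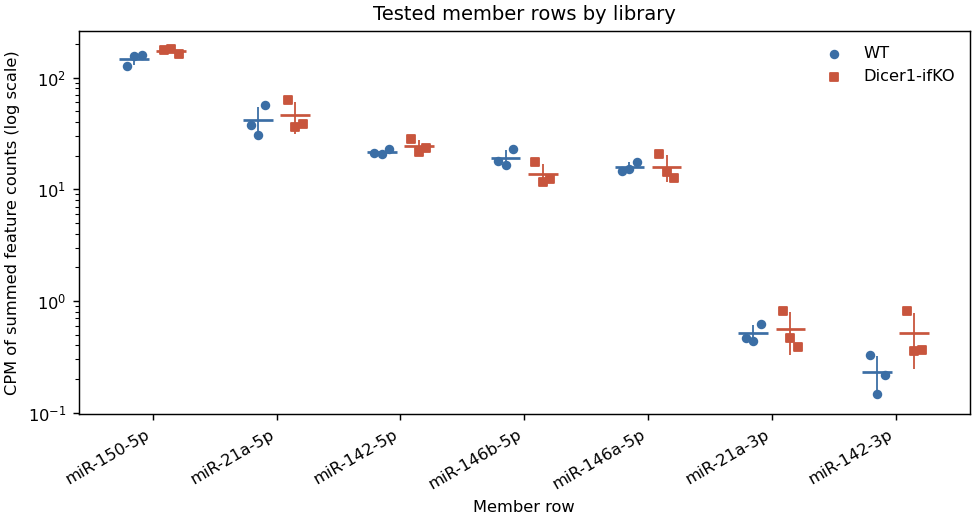
CPM (log axis) of the 7 tested member rows in each library. Circles are WT, squares Dicer1-ifKO, horizontal lines group means and vertical lines the SD (n = 3). miR-150-5p stands highest at 126 to 180 CPM, and both low rows, miR-21a-3p and miR-142-3p, stay under 1 CPM.

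miR-150-5p was the most abundant member, at rank 59 of all miRNA rows. In WT the mean levels were 147 CPM for miR-150-5p, 41.5 for miR-21a-5p, 21.5 for miR-142-5p, 19.2 for miR-146b-5p and 15.8 for miR-146a-5p. WT miR-146b-5p, at 16.5 to 22.9 CPM, overlapped both its neighbours in this order, miR-142-5p at 20.8 to 22.8 CPM and miR-146a-5p at 14.6 to 17.6 CPM. miR-150-5p alone made 56.6% to 67.9% of the member counts in every library.

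For the lymphocyte miRNA miR-150, the 5p row (chromosome 7, 45121762 to 45121783, plus strand, outside other annotated genes) stood at 126, 157 and 158 CPM in WT replicates 1, 2 and 3. It stood at 176, 180 and 164 CPM in Dicer1-ifKO replicates 1, 2 and 3. Every Dicer1-ifKO library was above every WT library, and WT replicate 1 was the lowest of the 6. This came to a log2 change of 0.24 ± 0.14 (SE, n = 3 each; edgeR adjusted p = 0.81), which did not pass. Without WT replicate 1 it was 0.16. In miRNA CPM the row went from 2267, 2594 and 2308 in WT to 3153, 3499 and 3222 in Dicer1-ifKO, a ratio of means of 1.38. Fitted on the miRNA rows alone it was higher, by 0.48 on the log2 scale (edgeR adjusted p = 0.034), where 2.00% of miRNA rows were called higher and 6.55% lower. With all features fitted and the scale set by the miRNA rows, the change was also 0.48 but did not pass (edgeR adjusted p = 0.41). The miR-150-3p row, the strand that is rarely kept, held 11, 9 and 10 counts in WT and 6, 8 and 7 in Dicer1-ifKO.

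miR-142 marks blood-derived cells and microglia and was counted almost only as its 5p arm, which lies in an intron of Mir142hg in GENCODE M21. miR-142-5p (chromosome 11, 87756867 to 87756887, plus strand) stood at 21.0, 20.8 and 22.8 CPM in WT replicates 1, 2 and 3. It stood at 28.3, 21.6 and 23.3 CPM in Dicer1-ifKO replicates 1, 2 and 3. The groups overlapped on this scale, and Dicer1-ifKO replicate 1 was the highest library. The log2 change was 0.18 ± 0.16 (SE, edgeR adjusted p = 0.93), and 0.06 without Dicer1-ifKO replicate 1. In miRNA CPM the values were 377, 344 and 333 in WT and 506, 419 and 459 in Dicer1-ifKO, with no overlap. In the fit of miRNA rows alone the row was higher by 0.41 on the log2 scale (edgeR adjusted p = 0.042). With all features fitted and the scale set by the miRNA rows, the change was also 0.41 but did not pass (edgeR adjusted p = 0.47).

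miR-142-3p (87756903 to 87756925) held 16, 7 and 10 counts in WT and 34, 19 and 17 in Dicer1-ifKO. Each Dicer1-ifKO library was above each WT library in CPM, with means of 0.230 ± 0.0911 for WT and 0.513 ± 0.266 for Dicer1-ifKO (SD, n = 3 each). Its log2 change of 1.11 ± 0.41 (SE) missed the threshold (edgeR adjusted p = 0.42). Without Dicer1-ifKO replicate 1, which held 34 of the 70 Dicer1-ifKO counts, it was 0.64. DESeq2 gave no adjusted p for this row. All Dicer1-ifKO libraries but not all WT libraries held more than 10 counts, so the row passed the filter through the group where it was high. The span of A430104N18Rik-001 (chromosome 11, 87755577 to 87757270), which covers both arms, held 1000 to 1207 counts per library, which the arms matched within 2 counts, so no further reads of this locus were seen.

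miR-223, a miRNA of neutrophils and other myeloid cells, was near the limit of detection. miR-223-3p (chromosome X, 96242884 to 96242905, in an exon of F630028O10Rik) held 8, 3 and 14 counts in WT and 12, 9 and 4 in Dicer1-ifKO. Both groups summed to 25 counts. miR-223-5p held 3 counts in all.

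miR-155, made from an exon of the noncoding Mir155hg and induced in activated macrophages and lymphocytes, was rarer still. miR-155-5p (chromosome 16, 84714143 to 84714165) held 5, 2 and 5 counts in WT and 5, 7 and 3 in Dicer1-ifKO. The miR-155-3p row was at 0 in all 6 libraries. A genotype difference in miR-155 or miR-223 was not detectable at this depth.

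The 2 miR-146 genes, which feed back on NF-kB signalling, gave 5p rows of similar level, and neither row passed the test. miR-146a-5p (chromosome 11, 43374435 to 43374456, minus strand, outside other annotated genes) stood at 14.6, 15.1 and 17.6 CPM in WT and 20.7, 14.2 and 12.7 CPM in Dicer1-ifKO. The Dicer1-ifKO libraries lay on both sides of the WT ones. Both means were 15.8 CPM, and the log2 change was 0.0074 ± 0.20 (SE, edgeR adjusted p = 0.99). Without Dicer1-ifKO replicate 1 it was -0.23.

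miR-146b-5p (chromosome 19, 46342790 to 46342811, plus strand, in an intron of Mfsd13a) stood at 18, 16.5 and 22.9 CPM in WT and 17.4, 11.7 and 12.3 CPM in Dicer1-ifKO. Dicer1-ifKO replicate 1 lay within the WT range and the other Dicer1-ifKO libraries below it. Its log2 change, -0.47 ± 0.20 (SE), missed the threshold (edgeR adjusted p = 0.52). It was the only tested member below 0, and it stayed below 0 in each alternative fit, from -0.24 with the miRNA rows setting the scale to -0.67 without Dicer1-ifKO replicate 1.

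Because both miR-146 genes give a 5p strand with 1 seed, their ratio was taken within each library, where the scaling cancels. miR-146b-5p made 55.3%, 52.2% and 56.6% of the summed 5p counts in WT replicates 1, 2 and 3. It made 45.7%, 45.3% and 49.2% in Dicer1-ifKO replicates 1, 2 and 3. The lowest WT library (95% exact binomial interval 49.6% to 54.7%, counting error only) and the highest Dicer1-ifKO library (46.3% to 52.1%) did not overlap in their values, though their intervals did. The means were 54.7% ± 2.30 and 46.7% ± 2.15 (SD, n = 3 each), a difference of -7.97 percentage points, which was -7.00 to -9.24 when each library was left out. This share was not tested, and 3 against 3 libraries cannot give an exact permutation p below 0.1. How often other pairs of miRNA rows differ without overlap was not counted. For another share within a library, that of the 3p arm in 251 hairpins, 13.5% were lower and 12.0% higher without overlap. The share of miR-146b-5p is therefore given as a description. The summed level of both rows averaged 34.9 ± 4.85 CPM for WT and 29.7 ± 7.34 CPM for Dicer1-ifKO libraries (SD, n = 3 each), with overlapping groups.

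**Figure D2:**
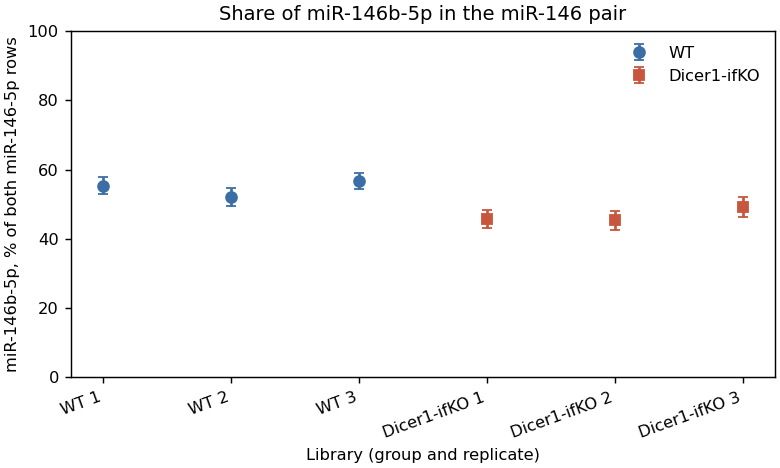
Share of miR-146b-5p in the summed counts of miR-146a-5p and miR-146b-5p (y axis, percent) in each library (x axis). Bars are 95% exact binomial intervals. The WT libraries lie at 52.2% to 56.6% and the Dicer1-ifKO libraries at 45.3% to 49.2%.

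The miR-146b row did not hold all the reads of its surroundings. The transcript span Tmem180-003 (an older name of Mfsd13a; chromosome 19, 46341121 to 46375252) held 13896 counts over the 6 libraries, and 66.3% of these were in neither miR-146b arm row. This rest was 1803, 1533 and 1979 counts in WT and 1518, 1348 and 1034 in Dicer1-ifKO. It made 64.1% to 68.3% of the span in every library, so the rest and the arm rows kept nearly the same proportion. The other models of the gene begin at 46356880 or later and held at most 6 counts per library, which places nearly all of the rest between 46341121 and that position. The files do not resolve it further, and whether it is miR-146b reads that reach past the annotated ends was not tested. The span as a whole had a log2 change of -0.43 ± 0.19 (SE, edgeR adjusted p = 0.6). At the miR-21a locus 1.25% of the Vmp1 span counts were outside the arms, and at miR-223 0%. The levels of miR-146a-5p and miR-146b-5p, and the shares above, rest on the annotated rows.

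miR-21a lies in the last part of Vmp1, in an exon on the same strand. miR-21a-5p (chromosome 11, 86584120 to 86584141, minus strand) stood at 37.4, 30.9 and 56.3 CPM in WT and 63.0, 36.4 and 38.8 CPM in Dicer1-ifKO. WT replicate 3 and Dicer1-ifKO replicate 1 were high, and the other libraries of both groups lay together. The log2 change was 0.15 ± 0.28 (SE, edgeR adjusted p = 0.99). It was -0.14 without Dicer1-ifKO replicate 1 and 0.48 without WT replicate 3. miR-21a-3p held 23, 21 and 29 counts in WT and 34, 25 and 18 in Dicer1-ifKO (log2 0.11 ± 0.30 SE, edgeR adjusted p = 0.99), and the same 2 libraries were its highest in CPM.

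**Figure D3:**
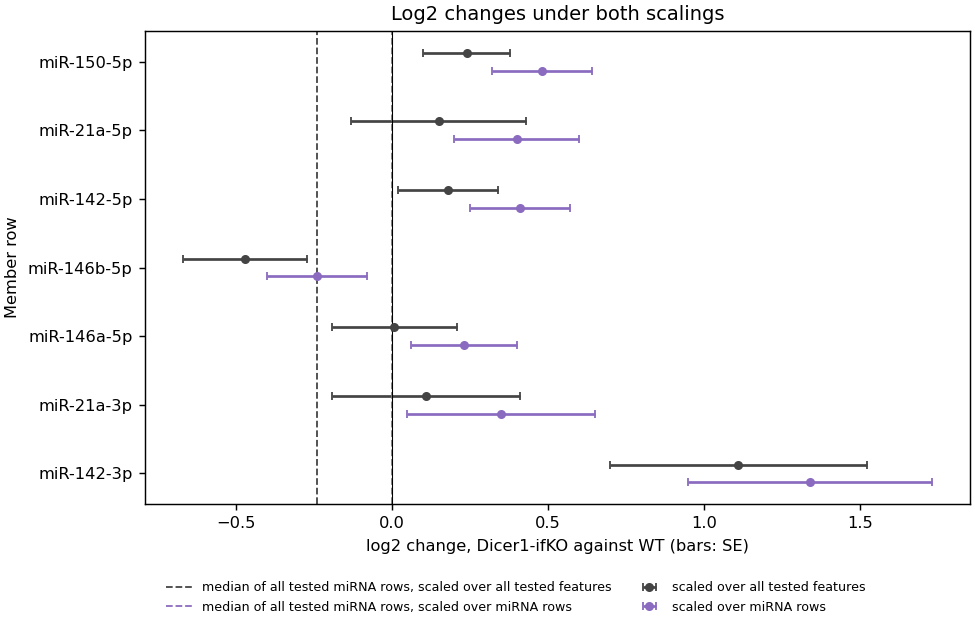
Log2 change of each tested member row (x axis, points) with its SE (bars), scaled over all tested features and over the miRNA rows. Dashed lines are the medians of all tested miRNA rows, -0.24 and 0.0013. Only miR-146b-5p lies below 0 on either scale.

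Of the 7 tested rows 6 lay above 0, with a median log2 change of 0.15. Among all 546 tested miRNA rows 24.5% lay above 0 and the median was -0.24, and over all features the median was -0.05. With the scale set by the miRNA rows, all miRNA rows shifted up by about the same amount: their median became 0.0013 and that of the members 0.40, and again 0 members passed (edgeR). The member median fell to -0.14 without Dicer1-ifKO replicate 1, since miR-146a-5p, miR-21a-5p and miR-21a-3p then lay below 0. In CPM the groups did not overlap for miR-150-5p, which was higher, and for miR-142-3p, which had passed the filter through the group where it was high. Of all tested miRNA rows 2.01% were higher and 33.9% lower without overlap. In miRNA CPM miR-142-5p was also higher without overlap, where the background was 11.0% higher and 22.5% lower. Since miR-142-3p was in the tested set through its high group, nothing is read from these counts of members.

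Summed over the 14 rows, the members made 39.3, 39.9 and 40.8 of every 10000 miRNA counts in WT replicates 1, 2 and 3. They made 55.1, 51.5 and 49.6 in Dicer1-ifKO replicates 1, 2 and 3. Each Dicer1-ifKO library was above each WT library, and the ratio of the means was 1.30. Most of this came from miR-150: without it the sums were 16.5, 13.9 and 17.7 in WT and 23.5, 16.5 and 17.3 in Dicer1-ifKO, which overlapped (ratio 1.19). As a share of the counts of all features the members were at 1.71 ± 0.187 and 1.99 ± 0.286 per 10000 (SD, n = 3 each), also with overlap.

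**Figure D4:**
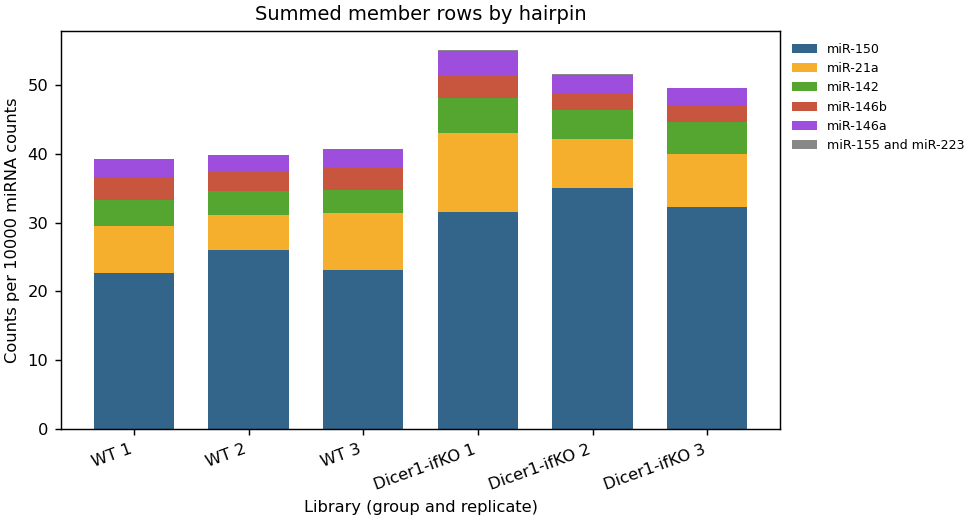
Counts of the members per 10000 miRNA counts (y axis) in each library (x axis), stacked by hairpin with both arms summed. The WT bars end at 39.3 to 40.8 and the Dicer1-ifKO bars at 49.6 to 55.1, and miR-150 is the largest part of each.

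The choice of strand is made after Dicer has cut, so the share of the 3p arm was compared within each hairpin. miR-223 was counted mostly as its 3p arm (50 of 53 counts, 94.3%, exact 95% interval 84.3% to 98.8%), and the other 6 hairpins as their 5p arm. The 3p share over all libraries was 0.112% for miR-150, 1.21% for miR-21a, 1.56% for miR-142 and 0.534% for miR-146b. No miR-146a-3p read was counted beside 4458 of the 5p arm, which allows a share of up to 0.0673% by the limit of 3 counts and up to 0.0827% by the exact 95% interval. The miR-150 3p share averaged 0.145% ± 0.0299 for WT and 0.0855% ± 0.00484 for Dicer1-ifKO (SD, n = 3 each), without overlap but on 30 and 21 counts. Its two-sided exact permutation p was 0.1, the smallest possible, and 0.39 adjusted over the 251 hairpins with at least 10 counts in each arm. Over those hairpins 13.5% had a lower and 12.0% a higher 3p share without overlap. The miR-142 3p share was 1.06% ± 0.431 and 1.99% ± 0.717 (SD, n = 3 each), with overlap (exact permutation p = 0.2, adjusted p = 0.54). Those of miR-21a and miR-146b also overlapped (exact permutation p = 0.7 and 0.4).

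Dicer1-ifKO replicate 1 was the library in which most members stood out. Relative to the mean of the other Dicer1-ifKO libraries its log2 CPM was higher by 0.743 for miR-21a-5p, 0.625 for miR-146a-5p, 0.537 for miR-146b-5p, 0.333 for miR-142-5p and 1.10 for miR-142-3p. Those 5 mature miRNAs have a GC content of 33.3% to 40.9%. It was also higher by 0.884 for miR-21a-3p, whose GC content is 59.1%. Over the 475 tested miRNA rows with a RefSeq sequence, the same deviation had a median of 0.56 for GC below 40% (85 rows), 0.18 from 40% to below 50% (162 rows) and 0.08 from 50% (228 rows). Of the members below 40% GC, miR-21a-5p and miR-142-3p lay above the median of that range and miR-142-5p below it. miR-146a-5p, miR-146b-5p and miR-21a-3p lay above the medians of their ranges. The gradient was not particular to this library: WT replicate 3 against the other WT libraries had medians of 0.43, 0.34 and 0.17 over the same ranges, with miR-21a-5p at 0.728, and WT replicate 2 had -0.34, -0.16 and 0.06. The part of base composition in the genotype values was not tested.

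**Figure D5:**
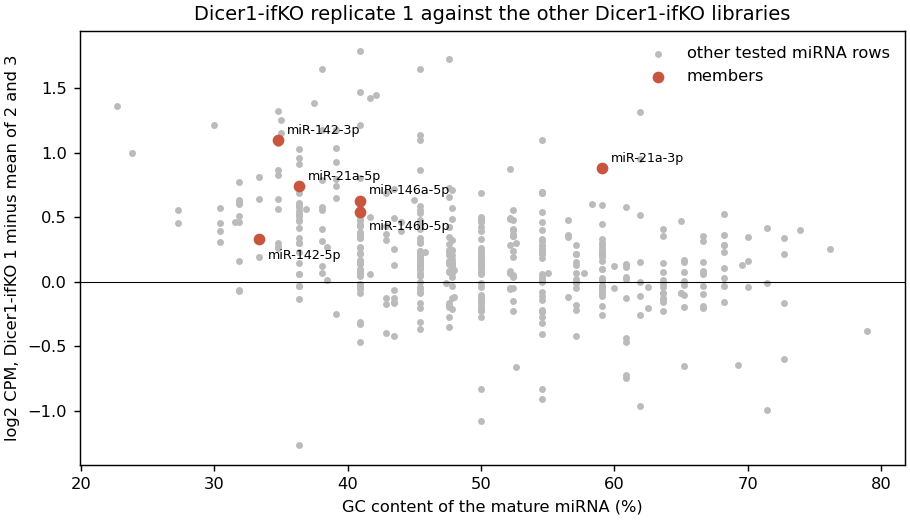
Difference of log2 CPM between Dicer1-ifKO replicate 1 and the mean of Dicer1-ifKO replicates 2 and 3 (y axis) against the GC content of the mature miRNA (x axis, percent). Grey points are other tested miRNA rows and red points the 6 tested members with a RefSeq sequence, all of which lie above 0.

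The profile over the 6 libraries showed which other miRNAs moved like the 2 most abundant members. Likeness was the root mean square difference of log2 CPM after each row's mean was taken off, among 387 miRNA rows with a mean of at least 50 counts. Nearest to miR-150-5p were miR-210-5p (0.06) and the rows of miR-92a-3p on chromosomes X (0.07) and 14 (0.08), where the median row was at 0.34. Nearest to miR-21a-5p were miR-30e-5p (0.05) and the rows of let-7f-5p on chromosomes X (0.06) and 13 (0.07), against a median of 0.38. miR-30e-5p, at 222, 191 and 354 CPM in WT and 390, 209 and 239 CPM in Dicer1-ifKO, had the same high libraries as miR-21a-5p.

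Among other miRNAs linked to immune cells or NF-kB, 26 rows of 20 names were tested, 2 were lower and 0 higher (edgeR), and the median log2 change was -0.06. The share lower was near the 6.59% of all tested miRNA rows. The 2 were miR-221-3p and miR-222-3p. The most abundant rows of that list, miR-181a-5p and miR-125b-5p, which are also neuronal, had log2 changes of -0.04 and -0.06. With the scale set by the miRNA rows the median turned to 0.19 and 1 row was lower. The 5 red blood cell rows, which track blood left in the tissue, had 0 calls and a median of -0.11 (0.12 on the miRNA scale), with miR-486-5p at 105 ± 6.34 and 96.0 ± 9.09 CPM (SD, n = 3 each). The miR-486-3p row had nearly equal means, 104 and 96.5 CPM, and whether both rows count the same reads was not tested. The rare miR-144-5p was higher without overlap, at means of 0.252 and 0.425 CPM (log2 0.73 ± 0.30 SE, edgeR adjusted p = 0.52). Of all tested miRNA rows 2.01% were higher without overlap. The 7 vessel rows had 0 calls and a median of 0.15 (0.41 on the miRNA scale). Among them miR-126b-3p and miR-126a-5p lie at nearly the same place with nearly equal CPM, as do miR-126b-5p and miR-126a-3p. The same reads may be counted in both rows of a pair. miR-143-3p of smooth muscle was at 300 ± 88.0 and 332 ± 37.6 CPM.

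Fragments of mRNA gave little on the cell types. Of 14 microglial marker genes, Aif1, Tyrobp and Trem2 were at 0 in all libraries, and the other 11 held 2 to 65 counts in all. This set of 14 was settled after values were seen. It summed to 15, 23 and 20 counts in WT and 23, 38 and 30 in Dicer1-ifKO, or 0.307 to 0.481 and 0.555 to 0.715 CPM. The Dicer1-ifKO sums were thus all above the WT sums. The largest part, 65 counts, was in the longer model of Cx3cr1 (chromosome 9, 119901616 to 120068283), the gene of the fractalkine receptor of microglia. This span held 5, 10 and 9 counts in WT and 14, 13 and 14 in Dicer1-ifKO (log2 0.78 ± 0.36 SE, edgeR adjusted p = 0.65). A shorter model within this span held 0, 1 and 1 counts in WT and 3, 3 and 4 in Dicer1-ifKO. Most of the 65 thus lie outside the shorter model, and whether they come from the receptor transcript was not tested. Itgam, another microglial marker, held 2, 5 and 5 against 1, 2 and 2 counts. Of 12 leukocyte markers 7 were at 0, including Cd79a, S100a8 and S100a9. The list summed to 7, 3 and 5 counts in WT and 3, 2 and 2 in Dicer1-ifKO. In CPM these sums were 0.0628 to 0.143 and 0.0376 to 0.0724, lower in range for Dicer1-ifKO but with overlap. Of the glial reactivity genes, Lcn2 was at 0 and Gfap held 8, 7 and 5 counts in WT and 4, 5 and 13 in Dicer1-ifKO. The neuronal markers, present in every library, summed to 8.77 to 11.4 CPM in WT and 8.95 to 11.5 CPM in Dicer1-ifKO. The part of any shift in cell makeup in the member values was not tested.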

How the data were processed

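Raw read counts per feature were used as deposited by the authors, in 6 files of 109108 features. The deposited normalized signal, raw counts times 1 constant per library, was not used for tests. BWA, SAMtools 0.1.18, CASAVA 1.8.2, DESeq2 and the GRCm38 (mm10) build are listed, with no role, per the submitters' processing notes. The annotation release, the counter, its strand setting and its handling of reads with several alignments were not given in the sources used here. Member rows are those named miR-142, miR-146a, miR-146b, miR-150, miR-155, miR-223 and miR-21a with an arm. Rows with identical counts and gene name were counted once. edgeR 4.0.16 (R 4.3.3) was run with filterByExpr (minimum count 10), TMM and robust glmQLFit with glmQLFTest, two-sided, Benjamini-Hochberg over 6539 features. SEs come from the F statistic. For arm shares, a two-sided exact permutation test over the 6 libraries was used. Alternatives were other scalings and filters, DESeq2 1.42.0, miRNA rows alone, a replicate block and leaving out each library on the same tested rows. Sums without miR-150 or miR-146b were added after the data were seen. Locations are from GENCODE M21 and sequences from RefSeq (GRCm38.p6). The edgeR script was tested on simulated data. Members, lists and tests were chosen with earlier results of these data known. Named were all member rows, with values per library from a mean of 10 counts, up to 2 rows of most lists, and 3 nearest miRNA rows for the 2 most abundant members. Single marker genes, and miR-221-3p and miR-222-3p, were named after their values were seen. 1 microglial marker of the list is not reported here.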

Additional observations from a re-analysis of the deposited data

How the results depend on the processing

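The number of member rows called was 0 lower and 0 higher by edgeR in each alternative except the fit of miRNA rows alone, which called 2 higher, miR-150-5p and miR-142-5p. For all miRNA rows, 36 were lower, against 16 on library totals, 8 with the scale set by miRNA rows, 3 with the replicate block and 1 to 63 when each library was left out. The rows called higher were 0, and 11 in the fit of miRNA rows alone. The member median of 0.15 was -0.14 to 0.32 when each library was left out, with the lowest value without Dicer1-ifKO replicate 1. In the same fits miR-146a-5p ran from -0.23 to 0.14, miR-21a-5p from -0.14 to 0.48 and miR-21a-3p from -0.25 to 0.32, so their direction rested on single libraries. With the replicate block miR-146a-5p was at -0.02. Same-numbered libraries did not deviate together (correlations of -0.18, 0.075 and -0.157 over features), so the numbers were not taken as pairs. The ratio of the member sums was 1.26 to 1.33 when each library was left out, 1.16 over all features and 1.19 without miR-150. The genotype difference in the 3p share, in percentage points, was -0.143 to 0.0326 for miR-21a, -0.422 to 0.00242 for miR-146b, -0.0715 to -0.0425 for miR-150 and 0.521 to 1.17 for miR-142 in these fits. The medians of the immune-linked and red blood cell lists turned to 0.19 and 0.12 with the scale set by miRNA rows. That scaling moved all miRNA rows up by about the same amount. The cause of the shifts between fits that left out a library was not tested. miR-155 and miR-223 were limited by depth, and miR-142-3p and miR-21a-3p fell out of the filter of 50 counts.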
